A study of Mus musculus with 9 samples.

Results

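The kinetochore and spindle checkpoint genes described here are 45 mouse genes chosen by symbol for their place in the chromosome attachment machinery. They were measured on a whole-transcriptome array on which 30743 genes have a transcript cluster of their own, a cluster being a group of probes read as 1 value. Of the 45, 44 have such a cluster, with exactly 1 each, and all 44 entered the test among 16650 genes. Hjurp, the chaperone that deposits CENP-A, lies only on a cluster that names several genes, and its value is not used here.

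RNA came from the endothelial lining of single thoracic aortas of female mice, collected by flushing lysis reagent through the vessel lumen, and 5 ng of each was hybridised to 1 Clariom D array. ACDiEKO mice carried floxed alleles of Mef2a, Mef2c and Mef2d, which encode MEF2 transcription factors, together with Cdh5-CreERT2, a Cre recombinase that endothelial cells make and that tamoxifen activates. Littermates with the same floxed alleles and no Cre served as controls, so an effect of Cre and the loss of the MEF2 genes cannot be told apart. Both groups received 5 daily tamoxifen injections at 10 weeks of age, and the harvest is placed 7 days after the first injection in the series text and 14 days after it in the sample protocols. There were 5 ACDiEKO arrays and 4 control arrays. The question was how the endothelial transcriptome differs once the MEF2 genes are deleted, here for the machinery that holds chromosomes to the spindle.

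A kinetochore is the protein plate built on each centromere during division. Centromeric chromatin marked by the histone CENP-A carries an inner constitutive network of CENP proteins, which carries the outer layer that grips microtubules. Unattached kinetochores recruit checkpoint kinases and effectors that hold back the anaphase-promoting complex until every chromosome is attached, while Aurora kinases correct faulty attachments and shugoshins guard sister cohesion. Most of these genes are transcribed in the late part of the cell cycle and are little expressed in resting cells, and the lining of the adult aorta is known as a tissue of mostly resting endothelium.

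Promoters of late cell cycle genes are known for the CHR element, bound by the LIN54 subunit of the DREAM and MuvB complexes, and for CCAAT boxes bound by NF-Y. The windows printed here run from 150 bases before to 50 bases after the RefSeq start of each gene (GRCm38.p6), 5′ to 3′ on the gene's strand, and are shown because they set 2 members that rose beside 2 that did not pass the test. Capitals mark CHR letters (TTTGAA or TTCGAA, either strand) and CCAAT boxes (either strand). Cdc20 lies at chr4:118437294-118437493 on the minus strand, Plk1 at chr7:122159285-122159484 on the plus strand, Zwint at chr10:72654696-72654895 on the plus strand and Bub3 at chr7:131560220-131560419 on the plus strand.
Cdc20: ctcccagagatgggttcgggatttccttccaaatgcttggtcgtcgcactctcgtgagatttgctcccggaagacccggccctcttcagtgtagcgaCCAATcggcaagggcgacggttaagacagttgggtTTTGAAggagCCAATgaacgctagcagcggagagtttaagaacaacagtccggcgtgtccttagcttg
Plk1: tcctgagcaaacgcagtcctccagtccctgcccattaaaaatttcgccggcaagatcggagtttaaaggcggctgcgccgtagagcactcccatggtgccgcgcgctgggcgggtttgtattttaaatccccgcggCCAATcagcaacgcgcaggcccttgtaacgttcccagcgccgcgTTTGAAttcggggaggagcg
Zwint: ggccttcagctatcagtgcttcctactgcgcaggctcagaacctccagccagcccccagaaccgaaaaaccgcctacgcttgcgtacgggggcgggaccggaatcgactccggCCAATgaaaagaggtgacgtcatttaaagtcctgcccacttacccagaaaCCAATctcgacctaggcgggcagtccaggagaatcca
Bub3: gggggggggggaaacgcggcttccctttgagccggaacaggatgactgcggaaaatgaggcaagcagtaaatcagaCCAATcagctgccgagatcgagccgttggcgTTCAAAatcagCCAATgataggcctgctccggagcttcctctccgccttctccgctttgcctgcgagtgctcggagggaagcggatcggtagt
Cdc20, the activator of the anaphase-promoting complex, has a CHR at -18 between CCAAT boxes at -53 and -8, counted from the start. Plk1, the Polo-like kinase of mitosis, has a CCAAT box at -14 and a CHR at 31. Zwint, which binds the outer scaffold KNL1, has CCAAT boxes at -37 and 14 and no CHR letters in this window. Bub3, a subunit of the checkpoint complex, has CCAAT boxes at -74 and -32 and a CHR on the opposite strand at -43, so that the letters TTCAAA are in capitals. Bub3 has a second RefSeq start, whose window of the same span (chr7:131560344-131560543) is not printed and holds neither kind of letters. Counted from that start, the CCAAT boxes lie at -198 and -156 and the CHR at -167. The same kinds of letters thus stood in the printed windows of members on both sides of the test, for the CHR through the first start of Bub3.

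The deposited values are log2 values made with RMA, which removes background, brings arrays to a common scale and merges the probes of a cluster. They ran from 2.58 to 19.34, beyond the range of a 16-bit scanner. How the values came to exceed that range is not given in the sources used here, and differences are given in log2 units of the deposited values and not as folds. Array medians lay between 6.13 and 6.15 in ACDiEKO and between 6.17 and 6.23 in controls. The clusters of Mef2a, Mef2c and Mef2d ranged over 13.61 to 13.96, 9.86 to 10.11 and 10.42 to 10.68 in ACDiEKO samples, against 13.55 to 13.76, 9.78 to 9.99 and 10.15 to 10.38 in controls, and none of them passed the test (adjusted p of 0.441, 0.660 and 0.111, limma). Where their probes lie relative to the floxed exons is not given in the sources used here, so the genotype labels are not checked by them. ACDiEKO replicates 1 and 2 differed from each other with a robust SD of 0.0707 (0.268 to 0.401 in the 15 other same-group pairs) and were averaged and counted as 1 sample. Both groups thus have 4 samples, and their number limits the precision. The titles of the averaged arrays open with different numbers, and whether these arrays share RNA was not tested. Endothelial markers (9 measured) averaged 13.29 to 13.70 in ACDiEKO samples and 13.17 to 13.49 in controls, among them Cdh5 at 15.83 ± 0.18 and 15.59 ± 0.21 (SD, n = 4 each). Of these 9, 2 were higher, Emcn by 3.72 and Kdr by 0.96 (adjusted p = 0.00252 and 0.0317, limma), 2 were lower, Tek by -1.92 and Pecam1 by -0.37 (adjusted p = 0.00529 and 0.0186), and 5, Cdh5 among them, did not pass. The call of Kdr was lost when any of 5 single samples was left out, and also without the averaged sample of ACDiEKO replicates 1 and 2. Without control replicates 3 and 4 the calls of Tek and Pecam1 were lost. That of Pecam1 was also lost under quantile normalization and without the averaged sample, among other settings.

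Of the 44 genes, 36 were higher in ACDiEKO, none was lower and 8 did not pass the test (limma over all 16650 genes, Benjamini-Hochberg adjusted p under 0.05, two-sided). That is 81.8% of the members, against 8.85% of all genes tested that were higher and 7.29% that were lower. The members were chosen with earlier results of these data known, so these shares describe the list and do not test it. In the same 36 members every ACDiEKO sample lay above every control sample, a pattern that 12.0% of all genes tested showed. The members' log2 differences, ACDiEKO minus control, ran from -0.34 to 2.83 with a median of 1.64, beside a median of -0.03 over all genes. The middle 95% of all genes lay between -1.04 and 1.16. Among the members 32 differed by at least 1 log2 unit and passed the test, and 32 had an adjusted p under 0.01.

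**Figure D1:**
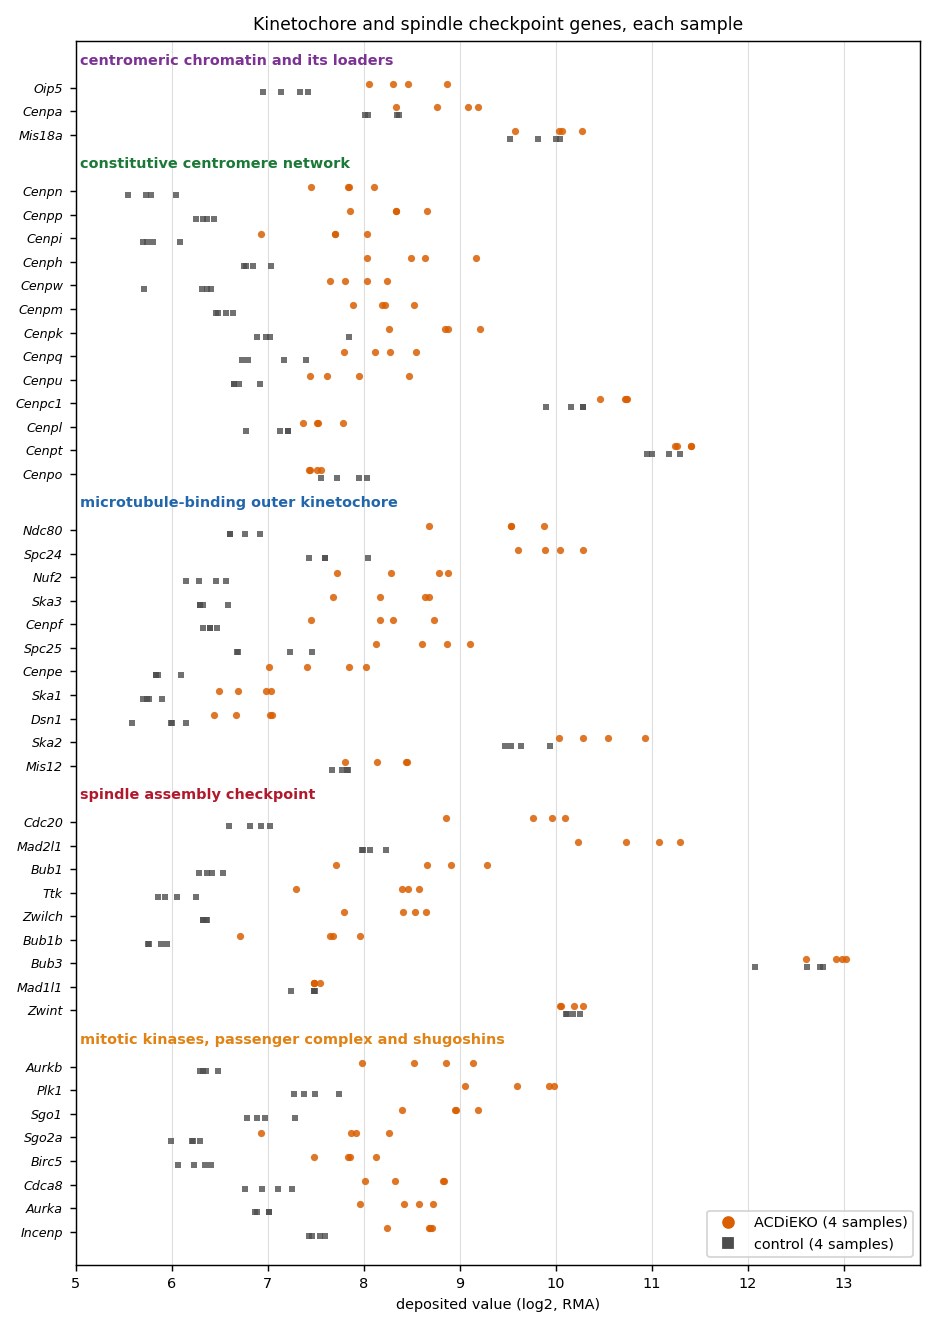
Deposited log2 values of the 44 kinetochore and checkpoint genes in each sample, by role; circles are the 4 ACDiEKO samples and squares the 4 control samples (ACDiEKO replicates 1 and 2 averaged). In 36 genes the circles lie to the right of all squares, and in the other 8 they meet or overlap.

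A gene entered the test where at least 4 samples exceeded 6.165, the table's overall median. In 7 members the control mean lay under that value (Cenpi, Cenpn, Dsn1, Ska1, Cenpe, Bub1b and Ttk), and in 6 of them, all but Ttk, no control sample exceeded it. Of the 44, 11 passed the filter only through their ACDiEKO samples. With every named gene tested and no filter, 34 of 44 members were higher, against 3.57% of 30743 genes, and Cenpl and Ska2 no longer passed. The 23 background features of the array, which match no mouse sequence, had a median of 3.64 and reached 7.52, so a value under that level is not shown to stand above background. The control mean lay under 7.52 in 33 of the 44 members, 32 of them among those that rose, and the size of these differences rests on that control level. In Dsn1 and Ska1 the ACDiEKO samples, up to 7.04 and 7.03, also lay under 7.52. Of the 11 members whose control mean lay above it, 4 rose (Cenpc1, Spc24, Ska2 and Mad2l1).

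Among the genes that mark and load centromeric chromatin, 1 of 3 measured was higher, with a median difference of 0.65. In what follows ACDiEKO values are given in the order replicates 1 and 2 averaged, 3, 4 and 5, and control values in the order 1 to 4. Oip5, a subunit of the MIS18 complex that prepares centromeres for new CENP-A, was 8.31, 8.46, 8.87 and 8.06 in ACDiEKO and 7.14, 7.42, 6.95 and 7.34 in control, a difference of 1.21 (SE 0.18, adjusted p = 0.00433, limma). The lowest ACDiEKO sample stood above the highest control. Cenpa, which encodes the centromeric histone itself, was 9.09, 9.19, 8.76 and 8.34 in ACDiEKO and 8.05, 8.01, 8.35 and 8.37 in control, a difference of 0.65 (95% interval 0.21 to 1.09, adjusted p = 0.0554). Its ACDiEKO replicate 5 lay within the control range, and without that replicate the difference passed the test (adjusted p = 0.0128, limma). Mis18a, the partner of OIP5 in the MIS18 complex, was 9.58, 10.27, 10.04 and 10.07 in ACDiEKO and 10.00, 9.82, 9.52 and 10.05 in control, with overlapping groups and a difference of 0.14 (95% interval -0.25 to 0.54, adjusted p = 0.600).

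In the constitutive centromere network, 11 of 13 genes were higher and 2 did not pass, with a median difference of 1.62. Cenpn, whose product reads the CENP-A nucleosome, was 7.84, 7.85, 8.11 and 7.45 in ACDiEKO and 5.54, 6.05, 5.78 and 5.73 in control, a difference of 2.04 (SE 0.16, adjusted p = 0.000442, limma). Its control samples all lay under the filter value and under the highest background feature, so the size of its difference rests on a level not shown to stand above background. Cenpm was 7.89, 8.19, 8.52 and 8.22 in ACDiEKO and 6.48, 6.64, 6.46 and 6.57 in control, a difference of 1.67 (SE 0.13, adjusted p = 0.000442). Its 4 control samples lay within 0.2 of each other and far below ACDiEKO. Cenpo was 7.44, 7.51, 7.43 and 7.56 in ACDiEKO and 7.95, 8.04, 7.56 and 7.72 in control, a difference of -0.34 (95% interval -0.59 to -0.08, adjusted p = 0.0781), and ACDiEKO replicate 5 met the lowest control. Cenpt was 11.41, 11.41, 11.24 and 11.26 in ACDiEKO and 11.18, 11.00, 11.30 and 10.95 in control, with overlap and a difference of 0.22 (95% interval from just below 0 to 0.44, adjusted p = 0.157).

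The network is built of smaller complexes, and its subunits can be read side by side, although differences between subunits were not tested. All 4 genes of the CENP-HIKM complex rose, by 1.74 (Cenph), 1.75 (Cenpi), 1.62 (Cenpk) and 1.67 (Cenpm). In the CENP-LN pair Cenpn rose by 2.04 and its partner Cenpl by 0.47. Cenpl passed with an adjusted p of 0.0431 and lost the call when any 1 of the 4 controls, or ACDiEKO replicate 3 or 4, was left out (adjusted p up to 0.0926, limma). Leaving out the averaged sample of ACDiEKO replicates 1 and 2 ended the call as well. In CENP-OPQUR, which helps hold Polo-like kinase at the inner kinetochore, Cenpp (1.95), Cenpq (1.16) and Cenpu (1.14) were higher, while Cenpo (-0.34) and Itgb3bp, the gene of CENP-R (0.04), did not pass. Of the histone-fold subunits, Cenpw (1.73) and Cenps (1.07) were higher, and their partners Cenpt (0.22) and Cenpx (0.08) did not pass. Control means of the higher genes in these complexes lay under the highest background feature, and those of genes that did not pass lay above it. In ACDiEKO Cenps itself reached only 7.55, next to that feature at 7.52. The sizes of the differences are therefore not set against each other between partners. Cenpc1 encodes CENP-C, the bridge from the CENP-A nucleosome to the outer plate. It was 10.73, 10.74, 10.72 and 10.46 in ACDiEKO and 10.28, 9.90, 10.16 and 10.29 in control, a difference of 0.50 (adjusted p = 0.0190) that did not pass without ACDiEKO replicate 4 (adjusted p = 0.0571, limma). Nor did it pass without the averaged sample of ACDiEKO replicates 1 and 2.

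In the microtubule-binding outer kinetochore, 10 of 11 genes were higher, with a median difference of 1.67. The 4 genes of the NDC80 complex, the main microtubule grip of the kinetochore, all rose. Spc24 was 9.89, 10.05, 10.29 and 9.61 in ACDiEKO and 7.60, 8.05, 7.43 and 7.60 in control, a difference of 2.29 (SE 0.18, adjusted p = 0.000442, limma). Ndc80 was 9.54, 9.88, 9.53 and 8.68 in ACDiEKO and 6.76, 6.61, 6.92 and 6.61 in control, a difference of 2.68 (SE 0.24, adjusted p = 0.000571). In both genes the samples of the 2 groups were separated by more than 1.5 log2 units. Nuf2, the partner of NDC80 at the microtubule end, rose by 2.05 (adjusted p = 0.00195), and Spc25, which joins SPC24 at the inner end, by 1.67 (adjusted p = 0.00466).

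The MIS12 complex links the inner network to NDC80. Its gene Mis12 was 8.45, 8.44, 8.14 and 7.81 in ACDiEKO and 7.67, 7.83, 7.84 and 7.77 in control, a difference of 0.43 (95% interval 0.10 to 0.76, adjusted p = 0.0797, limma). Only ACDiEKO replicate 5 overlapped the controls, and without it Mis12 passed the test (adjusted p = 0.0128). Dsn1 of the same complex was higher by 0.86 (adjusted p = 0.0128), as were Nsl1 by 1.38 and Pmf1 by 1.23 (adjusted p = 0.0119 and 0.00189). The SKA complex, which tracks microtubule ends with NDC80, had 3 genes higher, Ska1 by 1.02, Ska2 by 0.80 and Ska3 by 1.92 (adjusted p = 0.00216, 0.0276 and 0.00150). In Dsn1 and Ska1 all samples of both groups lay under the highest background feature. Neither gene was thus shown to stand above background in either group. The control mean of Nsl1 lay under that feature too. Ska2 was 10.55, 10.29, 10.93 and 10.04 in ACDiEKO and 9.94, 9.64, 9.47 and 9.53 in control. Its lowest ACDiEKO sample lay only 0.10 above the highest control, and the call was lost without control replicate 2, 3 or 4 (adjusted p up to 0.0736). The call was also lost without the averaged sample of ACDiEKO replicates 1 and 2. Cenpe, a kinesin that carries chromosomes toward the spindle equator, rose by 1.66 (adjusted p = 0.00229), and Cenpf, a large coiled-coil protein of the corona, by 1.77 (adjusted p = 0.00277).

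**Figure D2:**
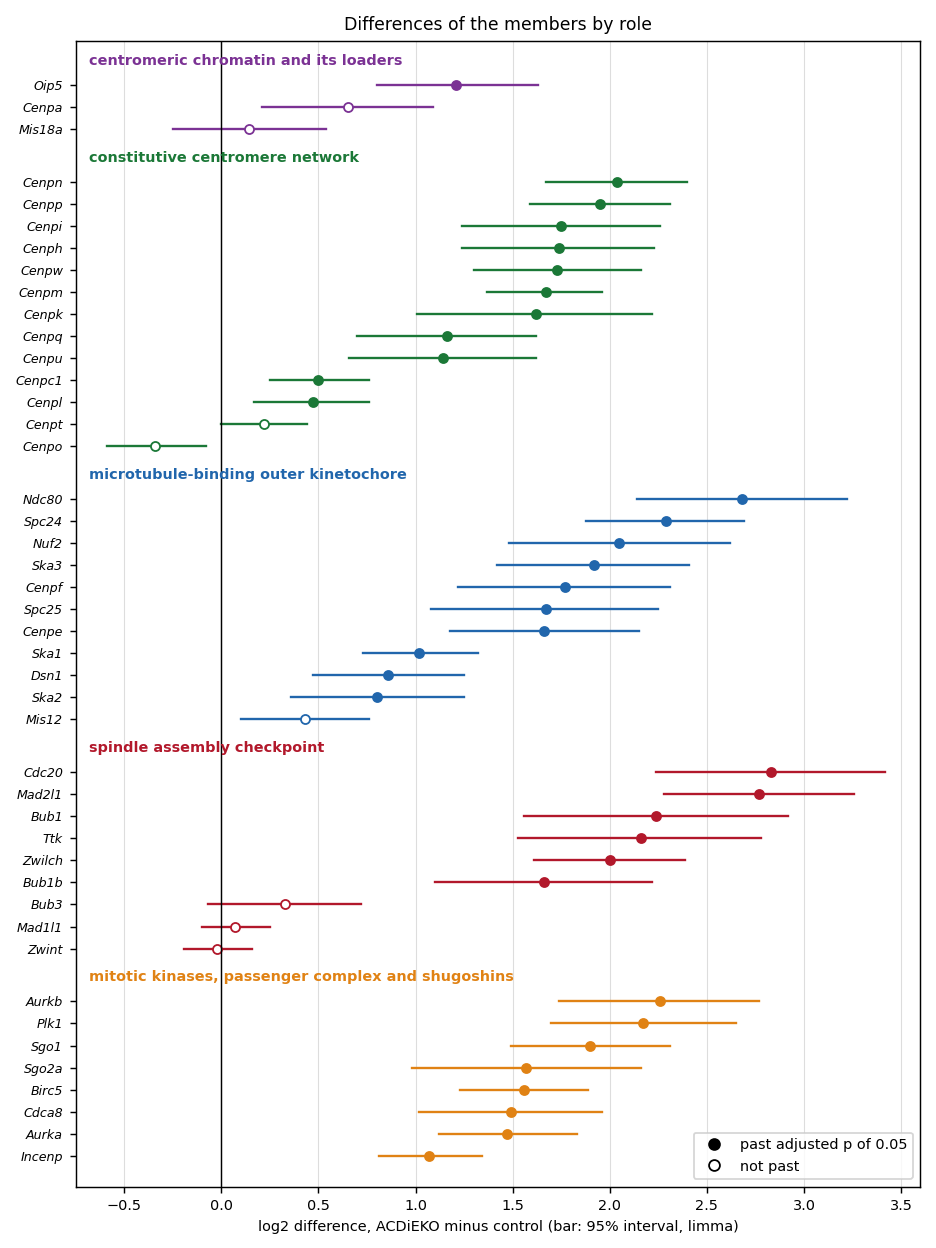
Log2 difference (ACDiEKO minus control) of each of the 44 genes with its 95% interval from limma, by role and in order of size; filled points passed an adjusted p of 0.05 and open points did not. Cdc20 (2.83), Mad2l1 (2.77) and Ndc80 (2.68) lie farthest right, and the open points run from Cenpo (-0.34) to Cenpa (0.65).

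Of the 9 genes of the spindle assembly checkpoint, 6 were higher and 3 did not pass, with a median difference of 2.0. Mad2l1 encodes MAD2, which unattached kinetochores convert into the form that inhibits CDC20. It was 10.73, 11.08, 11.30 and 10.23 in ACDiEKO and 7.99, 8.23, 7.98 and 8.07 in control, a difference of 2.77 (SE 0.21, adjusted p = 0.000442, limma). The lowest ACDiEKO sample stood 2.0 above the highest control, the widest gap of any member. Zwilch, of the RZZ complex that brings MAD1 and MAD2 to kinetochores, was 8.53, 8.41, 8.65 and 7.80 in ACDiEKO and 6.33, 6.37, 6.36 and 6.33 in control, a difference of 2.0 (SE 0.17, adjusted p = 0.000553). Its controls were nearly level, with an SD of 0.02. Cdc20 was 9.96, 10.10, 9.76 and 8.86 in ACDiEKO and 6.82, 6.60, 7.02 and 6.93 in control, a difference of 2.83 (SE 0.26, adjusted p = 0.000635). Every ACDiEKO sample lay above every control, but the controls of Cdc20, unlike those of Mad2l1, lay under the highest background feature.

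Bub1, the kinase that docks other checkpoint proteins, rose by 2.24 (adjusted p = 0.00264, limma), Ttk, the MPS1 kinase that starts checkpoint signalling, by 2.16 (adjusted p = 0.00229), and Bub1b, the BUBR1 subunit of the inhibitory complex, by 1.66 (adjusted p = 0.00420). Bub1 had the widest spread of any member in ACDiEKO, with 8.91, 9.29, 8.66 and 7.71 there and 6.53, 6.28, 6.37 and 6.42 in control. The other 3 checkpoint genes showed no such separation. Zwint was 10.19, 10.29, 10.05 and 10.06 in ACDiEKO and 10.18, 10.12, 10.25 and 10.11 in control, a difference of -0.02 (95% interval -0.19 to 0.16, adjusted p = 0.915) whose sign turned with the scaling between arrays. Mad1l1, which anchors MAD2 at kinetochores, differed by 0.07 (95% interval -0.10 to 0.25, adjusted p = 0.541). Its means of 7.49 in ACDiEKO and 7.42 in control both lay under the highest background feature, so its level is not shown to stand above background. Bub3 differed by 0.33 (95% interval -0.07 to 0.72, adjusted p = 0.226). The 4 proteins of the mitotic checkpoint complex, MAD2, BUBR1, BUB3 and CDC20, therefore had 3 genes that rose and 1 that did not pass.

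All 8 genes of the mitotic kinases, passenger complex and shugoshins were higher, with differences from 1.07 to 2.26 and a median of 1.56. Birc5, the gene of survivin, which places the passenger complex on centromeres, was 7.86, 8.13, 7.84 and 7.48 in ACDiEKO and 6.23, 6.07, 6.41 and 6.35 in control, a difference of 1.56 (SE 0.14, adjusted p = 0.000635, limma). No ACDiEKO sample came within 1 log2 unit of a control. The other passenger genes rose too, Aurkb, its kinase, by 2.26, Cdca8, which encodes borealin, by 1.49 and Incenp, its scaffold, by 1.07 (adjusted p = 0.000839, 0.00318 and 0.00119). Aurka, the Aurora kinase of spindle poles, rose by 1.47 (adjusted p = 0.00106) and Plk1 by 2.17 (adjusted p = 0.000755). Sgo1, a guardian of cohesion at mitotic centromeres, was 8.95, 9.19, 8.96 and 8.40 in ACDiEKO and 6.78, 6.89, 6.97 and 7.28 in control, a difference of 1.90 (SE 0.18, adjusted p = 0.000749). Sgo2a, its paralog, was 7.92, 8.26, 7.87 and 6.93 in ACDiEKO and 6.30, 6.21, 5.99 and 6.22 in control, a difference of 1.57 (SE 0.26, adjusted p = 0.00628). ACDiEKO replicate 5 stood well below the other ACDiEKO samples in Sgo2a and still above every control. Sgo2b, a close copy of Sgo2a, stayed at 4.92 in ACDiEKO and 4.85 in control, below the filter.

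The level of the whole set varied between ACDiEKO samples more than between controls. Its mean over the 44 genes was 8.71, 8.89, 8.89 and 8.25 in ACDiEKO samples and 7.29, 7.26, 7.24 and 7.29 in controls. ACDiEKO replicate 5 was the lowest ACDiEKO sample in 37 of the 44 members, while replicate 3 was the highest in 22 and replicate 4 in 19. In the 36 members that rose, replicate 5 lay below the mean of the other 3 ACDiEKO samples in 35, by a median difference of -0.69 and as far as -1.24 in Bub1. Spread within groups was wider in ACDiEKO in 35 of 44 members, with a median SD of 0.36 there and 0.16 in controls. The control mean lay under the highest background feature in 33 of the 44, and the part of that low level in the spread was not tested. The share of all genes with wider spread in ACDiEKO was not counted. Mki67, which encodes the division marker Ki-67, was 13.88, 14.00, 13.98 and 13.12 in ACDiEKO and 8.26, 8.02, 8.27 and 7.68 in control, a difference of 5.68 (adjusted p = 7.61e-05, limma), with the same replicate lowest. Without ACDiEKO replicate 5, 38 of 44 members were higher and their median difference was 1.78.

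Markers of other cells were read in the same samples, since in whole lining RNA fewer cells of a type and less RNA per cell cannot be told apart. Smooth muscle markers (14 tested) averaged 9.70 to 10.59 in ACDiEKO and 8.56 to 9.40 in controls, without overlap, and 9 of the 14 were higher and none lower. Without control replicates 3 and 4 all 9 calls were lost. Those of Tpm2, Lmod1 and Actg2 were also lost when certain single samples were left out. Acta2 and Tagln, smooth muscle contractile genes, were higher by 3.19 and 3.82 (adjusted p = 0.0106 and 0.00777, limma), while Myh11 (-0.04) and Cnn1 (-0.27) did not pass and Des stayed below the filter. ACDiEKO replicate 3 had the lowest smooth muscle mean of its group (9.70) and replicate 4 the highest (10.59), and the mean of the 44 members was 8.89 in both. In ACDiEKO replicate 5 the smooth muscle mean was 9.93 and the members' mean 8.25. In replicates 1 and 2 averaged they were 10.52 and 8.71. With the smooth muscle mean as a covariate in limma, no member passed (lowest adjusted p = 0.174), nor did any of the 16650 genes. At an unadjusted p under 0.05 that fit held 29 members and 1384 genes. The members' differences remained positive in 42 of 44 with a median of 1.34, while their median SE was 0.37 with the covariate and 0.19 without it. Smooth muscle level and genotype moved together in these samples, and the part of each in the members' differences was not tested.

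Leukocyte markers (6 tested) averaged 7.31, 7.98, 7.41 and 9.93 in ACDiEKO and 6.82, 7.86, 7.29 and 7.33 in control, and none passed the test (0 higher, 0 lower). The high sample, ACDiEKO replicate 5, was the one in which members were lowest, and without it the count of members that rose was no smaller, as given above. The part of leukocytes in the members' values was not tested. Of the fibroblast markers, 1 of 5 passed, Pi16, lower by -2.41, and no adipocyte (5 tested) or mesothelial (2 tested) marker passed.

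**Figure D3:**
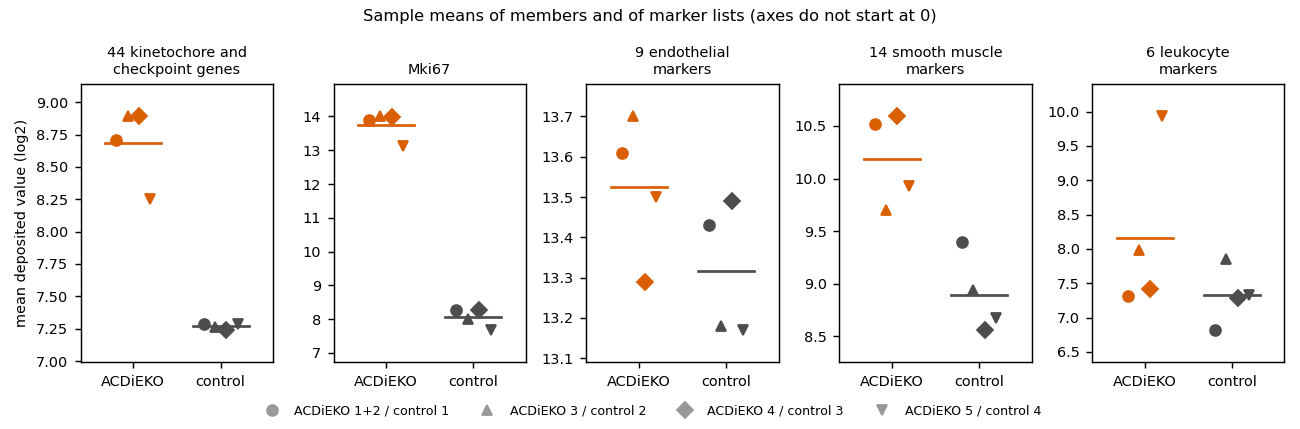
Mean deposited log2 value per sample of the 44 kinetochore and checkpoint genes, of Mki67 alone and of the endothelial, smooth muscle and leukocyte markers (bars are group means; axes do not start at 0). The members and Mki67 separate the groups in every sample, the smooth muscle markers do so too, and ACDiEKO replicate 5 (triangle pointing down) is lowest for the members (8.25) and highest for leukocyte markers (9.93).

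Samples could also be split by the number that opens each title. Control replicates 3 and 4 carry lower numbers, apart from those of all other arrays. With that run of numbers as a term in limma, 34 of 44 members were higher (Cenpu and Ska2 lost), and Cenpo was lower by -0.51 (adjusted p = 0.0149). Using only control replicates 1 and 2, whose numbers follow those of the ACDiEKO mice, 27 members were higher with a median of 1.57. The 9 lost were Bub1b, Cenpc1, Cenpk, Cenpl, Cenpq, Cenpu, Dsn1, Sgo2a and Ska2, and Cenpo was lower by -0.51 (adjusted p = 0.0274).

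Other genes of the same machinery were read from a list of 38, also chosen with earlier results of these data known, of which 32 were tested. Of these, 17 were higher (53.1%, against 8.85% of all genes tested), none was lower and 15 did not pass, with a median difference of 0.60. Knl1, the outer scaffold on which ZWINT and the BUB kinases sit, was 9.37, 9.72, 9.31 and 8.53 in ACDiEKO and 5.87, 6.09, 6.24 and 5.80 in control, a difference of 3.23 (adjusted p = 0.000401, limma). Its control level was not shown to stand above background, so the size of that difference is not set against that of its partner Zwint, which did not pass. Knstrn, which encodes the kinetochore and spindle protein kinastrin, differed by 2.85 (adjusted p = 0.000363), and Tpx2, the activator of Aurora A on spindles, by 3.03 (adjusted p = 0.000470). In the RZZ complex Kntc1 rose by 1.69 and Zw10, which also serves membrane traffic between divisions, differed by 0.19 without passing (adjusted p = 0.398). The control means of Tpx2 and Kntc1 also lay under the highest background feature, so the sizes of their differences rest on that level. Further genes that did not pass included Clasp1 and Clasp2, microtubule plus-end proteins, with 0.18 and 0.06, and the phosphatase subunits Ppp1cc and Ppp2r1a, with 0.47 and 0.12.

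The anaphase-promoting complex, the ubiquitin ligase that the checkpoint restrains, was read from a separate list, likewise chosen with earlier results known. Of 22 tested genes for its subunits, inhibitors and targets, 6 were higher (27.3%), 2 were lower and 14 did not pass, with a median of 0.14. Over all genes tested, 8.85% were higher and 7.29% lower, so 2 lower genes of 22 lie near that share. The targets Ccna2 and Ccnb2, mitotic cyclins, were higher by 3.39 and 3.20 (adjusted p = 0.000299 for each, limma), and Ube2c, the ligase's partner enzyme, by 2.29 (adjusted p = 0.000751). Espl1, the separase that cuts cohesin, rose by 0.71 (adjusted p = 0.0103) and Fbxo5, the EMI1 inhibitor of the ligase, by 0.97 (adjusted p = 0.0110). Control means of Ccnb2, Ube2c and Espl1 lay under the highest background feature, and the sizes of their differences rest on that level. Of the ligase's own subunits only Anapc15 rose, by 0.43 (adjusted p = 0.0428), a call lost when any of 5 single samples was left out. That call was also lost without the averaged sample of ACDiEKO replicates 1 and 2. Anapc16 was lower, at 10.23, 10.62, 10.31 and 10.84 in ACDiEKO and 11.38, 11.14, 11.12 and 11.20 in control (-0.71, adjusted p = 0.0132). Anapc10 was lower by -0.74 (adjusted p = 0.0164). Neither decrease passed without control replicates 3 and 4. Fzr1, the CDH1 activator that takes over from CDC20 after anaphase, was 8.12 in both groups.

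**Figure D4:**
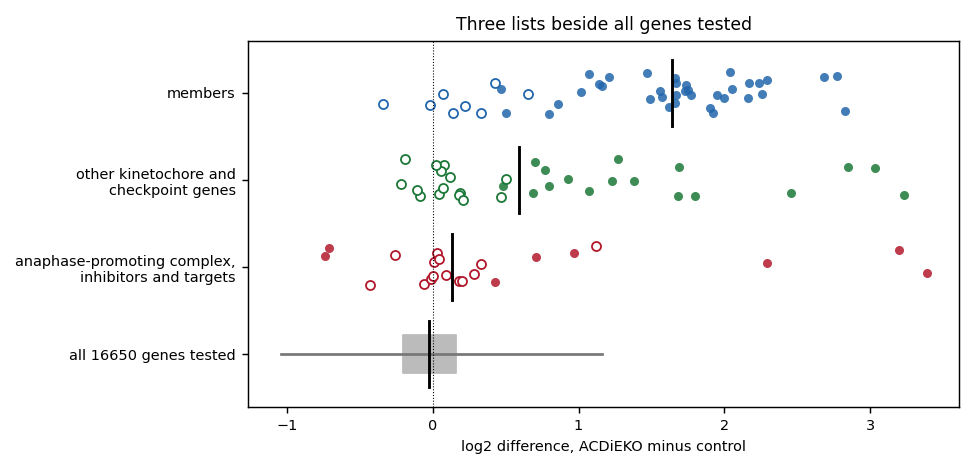
Log2 differences (ACDiEKO minus control) of the tested genes of the members, of the other kinetochore and checkpoint genes and of the anaphase-promoting complex list, filled where they passed the test, with medians as black bars (1.64, 0.60 and 0.14). The grey box and line give the middle 50% (-0.21 to 0.16) and 95% (-1.04 to 1.16) of all 16650 genes, around a median of -0.03.

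Promoter windows of 300 bases, 250 before to 50 after the start, were available in RefSeq for 40 of the 45 members and 27025 genes in all, counted on both strands. TTCGAA reads the same on either strand, and a window with both CHR forms was counted once. A CHR in either form was found in 21 of 40 members (52.5%), against 21.7% of all genes in the table. CCAAT boxes were found in 29 (72.5%), against 41.1%, and both kinds of letters in 18 (45.0%), against 8.61%. Among members that rose, 17 of 31 had a CHR, Plk1 and Cdc20 among them, and among those that did not pass 3 of 8 had one, namely Cenpa, Mis18a and Bub3. E2F letters (TTTGGCGC or TTTCGCGC, and also TTTCCCGC or TTTGCCGC, either strand) were found in 4 members (10.0%), against 2.6%. The MEF2 consensus was found in 0 of 40 members, against 3.7% of all genes. Over the 9859 genes with a window that were also tested on the array, the shares were 16.8% for a CHR, 42.9% for CCAAT boxes, 7.13% for both, 4.5% for E2F letters and 2.34% for the MEF2 consensus. A match is a description of these letters, no test was run on them, and an absence concerns these windows only.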

How the data were processed

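Expression was measured on 9 Clariom D arrays, 5 from ACDiEKO and 4 from control mice, each described as from 1 aorta. The values deposited by the authors are log2 values, made with RMA per the submitters' processing notes, with no version given. The genome build and annotation behind the clusters are not given in the sources used here. Of 72688 features, 6732 array controls were left out. Of the 65956 transcript clusters, 31216 had 1 gene symbol, 1534 several and 33206 none listed, and 1439 symbols were updated through gene IDs of the RefSeq table (GRCm38.p6). The brightest cluster per symbol was kept. Since 2 control arrays carry the number 3 in their titles, the later of them was named control replicate 4.

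The comparison used the R package limma (version 3.58.1, R 4.3.3) with its functions lmFit and eBayes (ACDiEKO minus control, two-sided, Benjamini-Hochberg over all genes tested, threshold 0.05), on 8 samples without covariates. Every adjusted p in the text comes from this limma fit unless another setting is named. Each sample is 1 array, except the averaged one, which joins 2 arrays whose titles open with different numbers. Members, lists, markers and the rule for named genes were chosen with earlier results of these data known. By that rule every member is accounted for by role, and in each role the 2 members with the smallest and the 1 with the largest adjusted p are given sample by sample. Cenpo, Cdc20, Bub1, Cenpc1, Ska2 and Anapc16 were given sample by sample, and the genes named as examples from the other lists were chosen, with their values known. Checks on simulated data used 5 runs on 16650 genes with 200 changed. In these runs limma recovered 79.2% of changes of 1 log2 unit and 93.6% of those of 2, with 4.58% false calls. Recovery at the wider spread of the members in ACDiEKO (median SD 0.36, against 0.16 in controls) was not tested separately. The shares recovered are therefore not given as rates for the members. Alternatives tried were other filters, scalings, thresholds and variance models, array weights, a replicate block, the run of title numbers, the smooth muscle mean as a covariate, all 9 arrays, and leaving out samples. Promoter letters were counted by script on both strands. Figures were drawn with matplotlib 3.10.9.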

Additional observations from a re-analysis of the deposited data

Results flagged for a closer look

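Among 88 groups of 4 samples (each member in each group), 10 held a sample that lay far from the other 3 of its group, where chance flags about 1 in 20 groups, or 4.4 of 88. In ACDiEKO, replicate 5 was low in Cenpc1 (10.46, the others 10.72 to 10.74), in Ttk (7.30, the others 8.40 to 8.58) and in Incenp (8.24, the others 8.68 to 8.71). Each of these values still lay above every control sample. Replicate 4 was high in Mad1l1 (7.54, the others 7.48). In controls, replicate 2 was high in Cenpk (7.85, the others 6.89 to 7.02) and in Cenpu (6.92, the others 6.65 to 6.70), and low in Cenpw (5.71, the others 6.32 to 6.41). Control replicate 1 was high in Ska3 (6.59, the others 6.30 to 6.33) and low in Mad1l1 (7.24, the others 7.48 to 7.49). Control replicate 3 was high in Cenpe (6.10, the others 5.84 to 5.86). The 3 low values of ACDiEKO replicate 5 belong to the pattern in which that sample was lowest in 37 of 44 members.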

How the results depend on the processing

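Between 33 and 38 of the 44 members were higher, with a median difference of 1.57 to 1.70, under no filter (34), centred arrays (37), quantile normalization (38), averaged clusters of a gene (36), a robust intensity trend (36), array weights (38), all 9 arrays (38), the fit without both near-identical arrays (33) and the run of title numbers as a term (34). At an adjusted p under 0.01, 32 were higher. With 1 of the other samples, or array 1 or 2 of ACDiEKO alone, left out, 34 to 38 members were higher and 0 to 1 lower, and the median ranged from 1.51 to 1.78. The averaged sample of ACDiEKO replicates 1 and 2 was left out in the fit without both near-identical arrays (33). That fit lost Cenpc1, Cenpl and Ska2. The 1 lower member was Cenpo, also with all 9 arrays (1 lower), with the run term (1 lower) and without control replicates 3 and 4 (1 lower). With the stricter filter (8.417) only 11 members were tested, 7 were higher and the median was 0.80; the other kinetochore genes then had 7 higher. With the smooth muscle covariate 0 members passed and their median was 1.34, with 0 of the other kinetochore genes, 0 of the anaphase-promoting complex list and 0 of all genes. The anaphase-promoting complex list had 3 higher without control replicates 3 and 4 and 3 at an adjusted p under 0.01. All genes past the threshold numbered 2687, against 1694 with the run term, 1116 without control replicates 3 and 4 and 1036 at 0.01. With single samples or single arrays left out they numbered 1678 (without ACDiEKO replicate 4) to 2717. Of all genes called, 54.8% were higher, against 65.9% with centred arrays and 65.5% with quantile normalization, where the median of all genes was 0.0357 and 0.0309 in place of -0.0254. The causes of these shifts were not tested, beyond the fewer genes or samples used.

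The sign of Zwint, never past the threshold, turned positive with centred arrays (0.0462), quantile normalization (0.0502), array weights (0.0008), the run term (0.0009), without control replicates 3 and 4 (0.0009), with the smooth muscle covariate (0.0857) and without control replicate 3 (0.0145), ACDiEKO replicate 4 (0.016) or ACDiEKO replicate 5 (0.0147); over single samples left out it ranged from -0.0611 to 0.016. With the covariate Ska2 was -0.0265. Deviations of arrays with the same replicate number in their titles correlated by -0.0017, -0.1457, 0.0352 and 0.0427. They were not compared with those of differently numbered arrays, so whether these numbers pair the samples was not tested. With the replicate block (9 arrays) 38 members were higher, 2364 genes passed, Zwint was 0.0698 and Mis18a -0.0049. The alternatives for those lists of other genes were added after seeing the data.

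Limits are the 4 samples per group, 33 of 44 control means under the highest background feature, and unknown probe positions.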

Other observations

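Further genes of the division machinery, chosen here after their values were seen, were higher as well. Tacc3, which steadies microtubules in spindle fibres, averaged 10.13 ± 0.44 in ACDiEKO and 7.67 ± 0.23 in control, a difference of 2.46 (adjusted p = 0.000635, limma; SD, n = 4 each). Trip13, the ATPase that takes the checkpoint complex apart, differed by 1.80 (adjusted p = 0.000759). Haspin, the kinase that marks histone H3 for the passenger complex, differed by 1.68 (adjusted p = 0.00315), at 8.45 ± 0.46 in ACDiEKO and 6.77 ± 0.25 in control. The kinesins Kif18a, which limits microtubule length at kinetochores, and Kif2c, which removes faulty attachments, differed by 1.27 and 0.77 (adjusted p = 0.00546 and 0.00231). Control means of Trip13, Haspin and Kif18a lay under the highest background feature, and the sizes of their differences rest on that level. Kif2c reached only 6.98 in ACDiEKO, under the highest background feature, and was not shown to stand above background in either group. Nde1, a dynein partner, differed by 0.80 (adjusted p = 0.00618), whereas its close relative Ndel1 differed by -0.11 without passing (adjusted p = 0.659), and the difference between them was not tested. Pttg1, the gene of securin, had an SD of 0.51 in ACDiEKO and 1.29 in control, and its difference of 0.33 did not pass (adjusted p = 0.739).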
